A study of Homo sapiens with 12 samples.

Results

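Ribosome biogenesis and nucleolar factors were examined in maps of N4-acetylcytidine (ac4C), a cytidine that carries an acetyl group. They are 40 genes chosen by name for the functions of their products, out of 10252 genes with an ac4C site in any list. No rule on their values was used, but earlier results of these data were known when they were chosen. A member was found by its gene symbol beside a called site, and 39 of the 40 had at least 1 site. UTP3, a small-subunit processome component, had none in any list. The sites were called from ac4C-RIP-seq, in which fragmented RNA is pulled down with an antibody against ac4C (IP) and sequenced beside the starting RNA (input). The cells were HK-2, an established human cell line from renal tubular epithelium, either wild-type controls (WT) or labelled as NAT10 knockout (KO); the series text calls the second genotype KD, and no further allele, clone or treatment is given in the sources used here. Each genotype had 3 pairs of IP and input libraries (12 samples in all), and each pair gave 1 list of sites.

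Ribosomes are assembled in the nucleolus, where RNA polymerase I transcribes a long precursor of the ribosomal RNAs. The small-subunit processome, built from the UTP-A and UTP-B complexes, the U3 box C/D snoRNP and many single factors, folds and cuts the small-subunit part, while the PeBoW complex and further factors mature the large subunit. NAT10 is itself a nucleolar acetyltransferase that modifies small-subunit rRNA and takes part in pre-rRNA processing, and it has been described as the writer of ac4C in mRNA. Tubular cells, like other growing epithelial cells in culture, use this machinery continuously. The values below concern ac4C sites called on the mRNAs of these factors, not on rRNA and not the amounts of the mRNAs.

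NAT10 mRNA held 11, 11 and 8 sites in WT lists 1, 2 and 3 and 2, 5 and 9 sites in KO lists 1, 2 and 3. The ranges of the genotypes overlapped, and a site number does not measure NAT10 transcript or protein. The lists held 13818 to 19136 sites and 6698 to 7894 genes, and the lengths of the genotypes overlapped (KO 16942 ± 2778.3, WT 16645.7 ± 1194.8 sites, SD, n = 3 each; exact permutation test, two-sided, p = 0.8). The authors' false discovery rate was 11.3% or higher for every site. Of 15 tubular epithelial markers 12 had a site in some list and 5 in all 6 lists. Of 14 further kidney and blood markers 2 had a site (PDGFRB and ACTA2). Those 14 included UMOD, SLC12A1, SLC12A3 and AQP2, which mark other tubule segments and had no site, so the 2 lists do not separate tubular from other cells. With 3 lists against 3, the exact permutation test cannot give a p below 0.1, so none of these comparisons could pass 0.05, and each difference is given with its spread. A list holds no read counts, so the depth behind a site is unknown, and more acetylation and more transcript cannot be told apart. Whether replicates were separate cultures is not stated in the labels, so p-values measure only the spread between these lists, which may be technical.

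The sequence of a site could not be printed because no genome of the files' coordinates was used here. A motif found at the starts of some of the genes is shown instead, since several are textbook targets of MYC, whose E-box is CACGTG. Of the 40 genes, 34 had a promoter window in the RefSeq table for GRCh38.p14, reaching from 250 bases before to 50 bases after the gene's start. The motif reads the same on both strands and was in the window of 13 of them (38.2%), as against 8.77% of all 27305 genes with a window and 10.9% of the 15843 protein-coding ones. A match is a description of these letters only, with no binding measured. The genes below are those with an E-box whose site numbers did not overlap between genotypes, each read along the gene's strand, with the motif in capitals.
MYBBP1A: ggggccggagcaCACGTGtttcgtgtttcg
RRP9: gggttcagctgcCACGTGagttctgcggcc
WDR43: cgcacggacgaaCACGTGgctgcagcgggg
UTP14A: accttgggcCACGTGgaaaccaggggc
GNL2: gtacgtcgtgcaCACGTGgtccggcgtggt
GNL3: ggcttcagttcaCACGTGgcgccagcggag

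In GRCh38.p14 these stretches are chr17:4555340-4555369 on the minus strand, chr3:51941892-51941921 on the minus strand, chr2:28894658-28894687 on the plus strand, chrX:129905914-129905940 on the plus strand, chr1:37595917-37595946 on the minus strand and chr3:52686026-52686055 on the plus strand, in the order printed. The genes shown include 4 with more sites in the KO lists (RRP9, WDR43, UTP14A and GNL3) and 2 with fewer (MYBBP1A and GNL2). The motif thus stood in genes of either direction. Among all members with a site, 43.6% had site numbers without overlap, as against 46.8% of all genes. TCOF1, BOP1 and RRP12 also had no overlap, but they had no promoter window and could not be shown. The UTP14A window holds the motif near its far end, while in the other 5 it lies within 50 bases of the start.

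Over all members, site numbers of the KO and WT lists overlapped. Sites were called on 33, 32 and 33 members in the WT lists and on 29, 32 and 35 in the KO lists (32.7 ± 0.577 against 32 ± 3, SD, n = 3 each; exact permutation test, two-sided, p = 0.8). The difference of -0.667 became 0.833 without KO list 1. The number of member sites was 131, 139 and 119 in WT and 108, 117 and 136 in KO (130 ± 10.1 against 120 ± 14.3, p = 0.4 by the same exact test). That difference of -9.33 ranged from -3.17 without KO list 1 to -17.2 without KO list 3. A member with a site carried 3.97 ± 0.369 sites per WT list and 3.76 ± 0.118 per KO list, as against 2.36 and 2.27 for all genes. The median difference of site number between genotypes was 0 for the 39 members and 0 for all genes. Of the 39 members, 25 (64.1%) had a site in all 6 lists, where 38.9% of all genes did.

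Single genes differed in both directions beneath these totals, about as often as genes in general. The site numbers of the genotypes did not overlap in 17 of the 39 members (43.6%), where 46.8% of all genes met that rule. Among genes with a mean of at least 2 sites, the rule took 12 of 26 members (46.2%) and 46.9% of all 2982 such genes. Fewer sites in every KO list than in every WT list were found for 10 members (25.6%, with 23.1% of all genes), namely POLR1A, MYBBP1A, TCOF1, WDR3, WDR36, BOP1, WDR12, NOP16, RRP1 and GNL2. More sites in every KO list were found for 7 members (17.9%, with 23.7% of all genes), namely RRP9, HEATR1, NOL11, WDR43, UTP14A, RRP12 and GNL3. WDR12 and RRP1 had sites in each WT list and none in KO (5.13%, with 11.8% of all genes), and NOL11 and GNL3 had sites in all KO lists and no WT list (5.13%, with 15.0% of all genes). Each of these 17 members had an exact permutation p of 0.1, which became 0.214 after Benjamini-Hochberg adjustment over all 10252 genes, so none passed. WT-only members numbered 4 without KO list 3, and 1 at a fold of at least 4 or a length of at least 50 bases. The rule asks for every list, so leaving a list out can only keep or raise such a count. Under a fold of at least 4, a score of at least 100, equal list lengths and a length of at least 50 bases, 9 of the 17 stayed without overlap each time, and TCOF1, RRP9, HEATR1, WDR3, WDR36, BOP1, WDR12 and NOP16 overlapped in at least 1 of these settings.

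**Figure D1:**
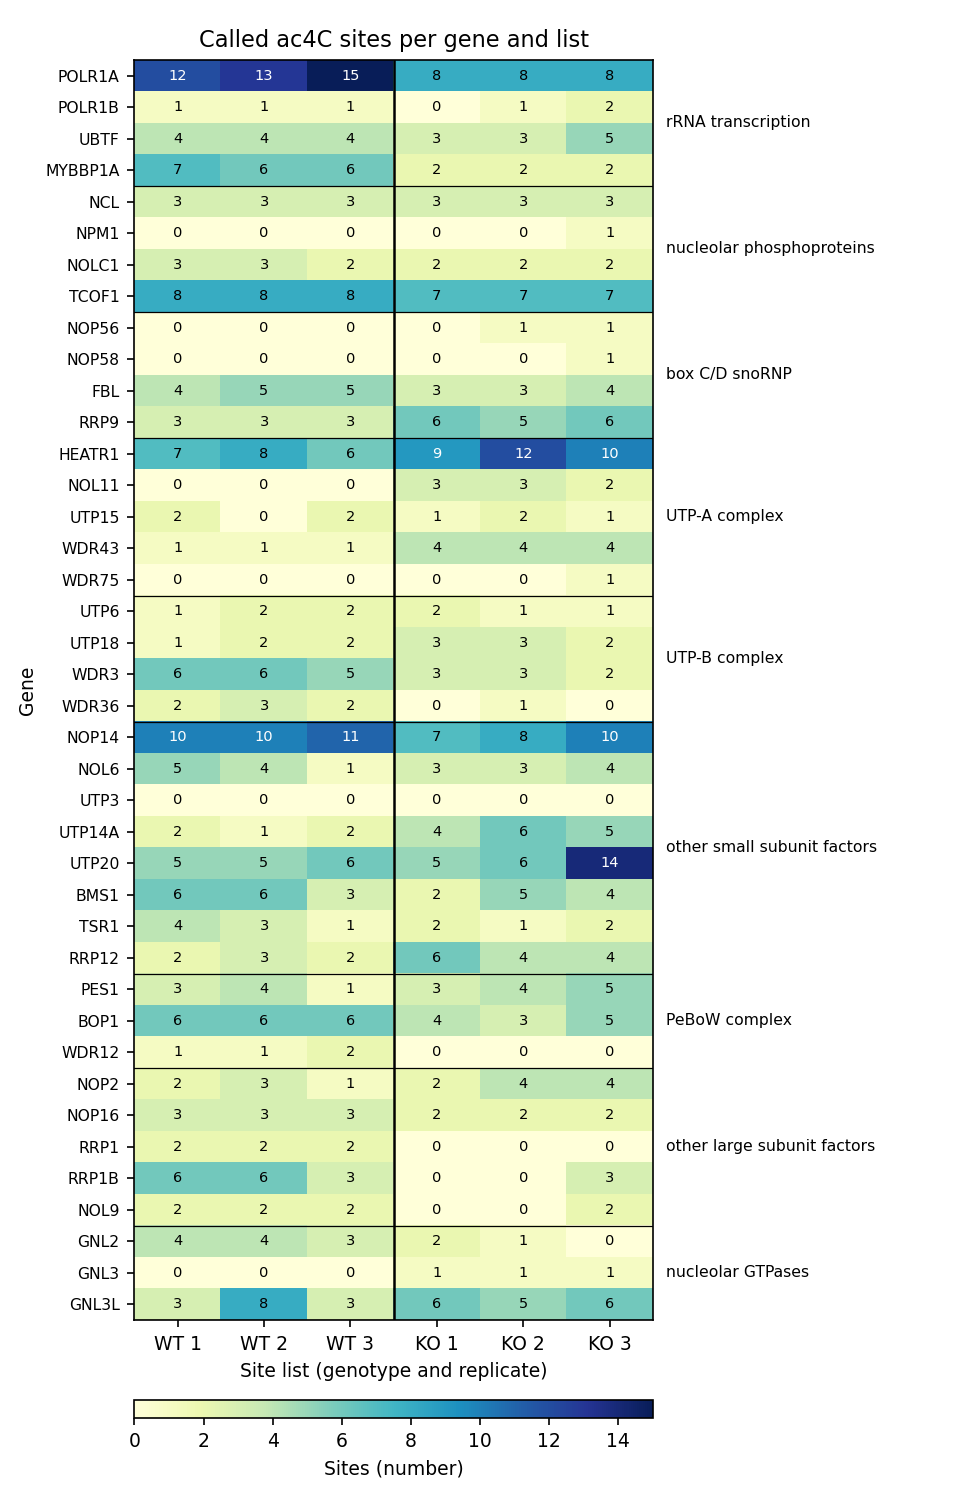
Number of called ac4C sites (cell value and colour) for each of the 40 genes (rows, grouped by role) in each of the 6 lists (columns, WT left and KO right of the line). POLR1A had 12 to 15 sites in WT lists and 8 in each KO list, HEATR1 and WDR43 had more sites in every KO list, and NCL had 3 sites in every list.

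The 4 members of rRNA transcription, summed, had fewer sites in each KO list than in any WT list. They held 24, 24 and 26 sites in the WT lists against 13, 14 and 17 in KO, a difference of -10 (exact permutation p = 0.1). By gene the differences were -5.33 for POLR1A, -4.33 for MYBBP1A, -0.333 for UBTF and 0 for POLR1B. Among rRNA transcription genes outside the members, POLR1H had fewer sites in every KO list, while POLR1E and POLR1F had more. POLR1A, the largest catalytic subunit of RNA polymerase I, held 12, 13 and 15 sites in the WT lists against 8 in each KO list (13.3 ± 1.53 against 8 ± 0). All 3 WT lists lay above the KO lists. To compare places, sites that overlapped across lists were joined to 1 region, called WT-only where all WT lists and no KO list held them and KO-only in the reverse case. POLR1A regions included 5 found in all 6 lists, 4 that were WT-only and 1 that was KO-only. The start codon region, chr2:86332823-86333132 in the files' coordinates, was among the WT-only ones, with folds of 11.5, 8.08 and 7.47; a fold is the authors' enrichment of IP over input at that site. In WT lists 2 and 3 the gene's highest folds, 14.3 in each, were at another WT-only region in the coding sequence, chr2:86280035-86280123. In the KO lists the highest folds, 19.6, 20.1 and 18.5, were instead at a coding region present in all 6 lists, chr2:86257319-86257519.

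MYBBP1A, a nucleolar protein that binds MYB and represses RNA polymerase I, held 7, 6 and 6 sites in the WT lists against 2 in each KO list (6.33 ± 0.577 against 2 ± 0), again without overlap. The start codon region, chr17:4458422-4458677, had its highest folds in the WT lists, 15.2, 23.6 and 20.3, and was in no KO list. A coding region, chr17:4453353-4453648, was in all 6 lists and held the highest KO folds among sites named for the gene, 12.9, 14.6 and 15.5. The 3' UTR region counted for MYBBP1A in all 6 lists was named for MYBBP1A in the 3 WT lists and for SPNS2, a sphingosine-1-phosphate transporter gene, in the 3 KO lists, so the gene assignment there changed with the genotype. The site numbers and the bases covered depend on that name. Sites named for MYBBP1A covered 1627, 1479 and 1467 bases in WT and 398, 414 and 400 in KO, but with the SPNS2 sites of the region added the KO lists had 3 sites each and 2778, 2895 and 2881 bases. The site numbers then still did not overlap, while the covered length, with those SPNS2 bases, turned to more in KO. With the region left out in both genotypes, the gene had 6, 5 and 5 sites in WT against 2 in each KO list. The bases covered were then 923, 774 and 763 in WT against 398, 414 and 400 in KO, fewer in KO. The SPNS2 sites had folds of 20.6, 20.2 and 18.7. UBTF, which binds the rDNA promoter, held 4 sites in every WT list against 3, 3 and 5 in KO, and POLR1B, the second large catalytic subunit, held 1 in each WT list and 0, 1 and 2 in KO; both overlapped. UBTF nevertheless had different regions by genotype, 2 only in WT lists and 2 only in KO lists, and the KO-only region of 923 bases in its 3' UTR, chr17:42283157-42284079, had folds of 17.9, 16.1 and 19.8.

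The nucleolar phosphoproteins differed little in total, with 14, 14 and 13 sites in WT, as against 12, 12 and 13 in KO (difference -1.33, exact permutation p = 0.2). NCL, nucleolin, an abundant RNA-binding protein of the nucleolus, had 3 sites in every list. All 3 had the same start and end in every list, and they covered 835 bases in each. Across the members 15 of 344 distinct sites had the same start and end in all 6 lists, spread over 7 genes. The NCL folds at the coding site chr2:232326251-232326728 were 12, 14.1 and 13.5 in WT and 12.8, 14.6 and 15.8 in KO. TCOF1, treacle, a scaffold of rDNA transcription whose loss causes Treacher Collins syndrome, held 8 sites in each WT list and 7 in each KO list, so its non-overlap rests on a difference of -1. Its start codon region, chr5:149737202-149737417, was in all 6 lists with folds of 19.4, 19.4 and 20.5 in WT and 21.3, 21.1 and 24 in KO. It held the gene's highest fold in each WT list, while in each KO list the highest, at 30.7, 25.6 and 28.9, was the coding region chr5:149767465-149767651. NOLC1, a chaperone of snoRNPs, held 2 or 3 sites in every list. NPM1, nucleophosmin, which has many near-identical pseudogenes, had 1 site in KO list 3 and none elsewhere.

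Among the box C/D snoRNP proteins, which guide ribose methylation and pre-rRNA cleavage, the KO lists held more sites (9, 9 and 12) than the WT lists (7, 8 and 8), a difference of 2.33 (exact permutation p = 0.1) that was 1.33 without KO list 3. At a fold of at least 4 the difference was 0.667. RRP9, the U3-specific protein, held 3 sites in every WT list against 6, 5 and 6 in KO (3 ± 0 against 5.67 ± 0.577), without overlap. Of its 7 regions 4 were only in KO lists, 1 only in WT lists and 1, at the start codon, in all 6. The KO-only coding region chr3:51968647-51968741 had folds of 28.1, 25.4 and 34.1, the highest of the gene in those lists. FBL, fibrillarin, the methyltransferase of these particles, held 4, 5 and 5 sites in the WT lists against 3, 3 and 4 in KO, which overlapped at 4. All 6 lists shared 3 of its 5 regions. The start codon region of FBL, chr19:40336931-40337049, was the gene's highest in each WT list, with folds of 16.8, 25.8 and 45, and of the KO lists it was the highest in list 3 alone. NOP56, a core scaffold protein of these particles, had 1 site in KO lists 2 and 3, and NOP58, its partner, 1 in KO list 3; neither had any in WT.

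UTP-A is the complex that binds the nascent pre-rRNA first and is linked to its transcription. Its 5 members examined here, summed, had more sites in each KO list (17, 21 and 18) than in any WT list (10, 9 and 9). The difference was 9.33 (exact permutation p = 0.1). UTP4, a UTP-A subunit outside the members, was not in this sum. It overlapped between genotypes, at 2, 1 and 1 for the WT lists against 1, 0 and 1 for the KO lists. HEATR1, the homologue of yeast Utp10, held 7, 8 and 6 sites in the WT lists against 9, 12 and 10 in KO (7 ± 1 against 10.3 ± 1.53). Every KO list was above every WT list, yet the gene had 4 WT-only regions as well as 5 KO-only ones. A WT-only and a KO-only HEATR1 region, chr1:236761230-236761279 and chr1:236761178-236761225, lay 4 bases apart. WDR43 had 1 site in each WT list and 4 in each KO list. Its stop codon region, chr2:29169466-29170116, was in all 6 lists and held the gene's only WT sites, with folds of 23, 25.2 and 28.9. The other 3 regions were only in KO lists, and 1 of them, chr2:29165178-29165247, held the gene's highest KO folds, 15.1, 10.5 and 10.9.

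NOL11, a UTP-A component, was found in KO lists only, with 3, 3 and 2 sites and none in the WT lists. Its highest folds were 16.8 and 15.1 in KO lists 1 and 2, at the coding region chr17:65732016-65732139, and 6.53 in KO list 3, at another coding region, chr17:65717494-65717642. UTP15 held 2, 0 and 2 sites in the WT lists against 1, 2 and 1 in KO. Its coding region chr5:72864066-72864152 was in all KO lists and no WT list, with folds of 48.7, 39.4 and 27.1. Over the 5 lists with a site, the gene's median within-list rank was the highest of any member, at percentile 90. WDR75 had 1 site in KO list 3 and none elsewhere.

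The UTP-B complex joins the processome after UTP-A. Its 4 members examined here held 10, 13 and 11 sites in the WT lists against 8, 8 and 5 in KO. The difference was -4.33, opposite in direction to that of the UTP-A members (exact permutation p = 0.1). At a fold of at least 4 it was -2.33 (exact permutation p = 0.5). PWP2 and TBL3, UTP-B subunits outside the members, were not in this sum. PWP2 had fewer sites in every KO list (1, 2 and 2, against 3 in each WT list). TBL3 overlapped, at 2, 1 and 0 for the WT lists against 1 for each KO list. WDR3 held 6, 6 and 5 sites in the WT lists against 3, 3 and 2 in KO (5.67 ± 0.577 against 2.67 ± 0.577). None of its 9 regions was in all 6 lists; 5 were only in WT and 2 only in KO lists. WDR36, a WD-repeat protein also studied in glaucoma, held 2, 3 and 2 sites in the WT lists against 0, 1 and 0 in KO. UTP18, with 1, 2 and 2 sites in WT, as against 3, 3 and 2 in KO, and UTP6, with 1 or 2 in every list, overlapped between genotypes.

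**Figure D2:**
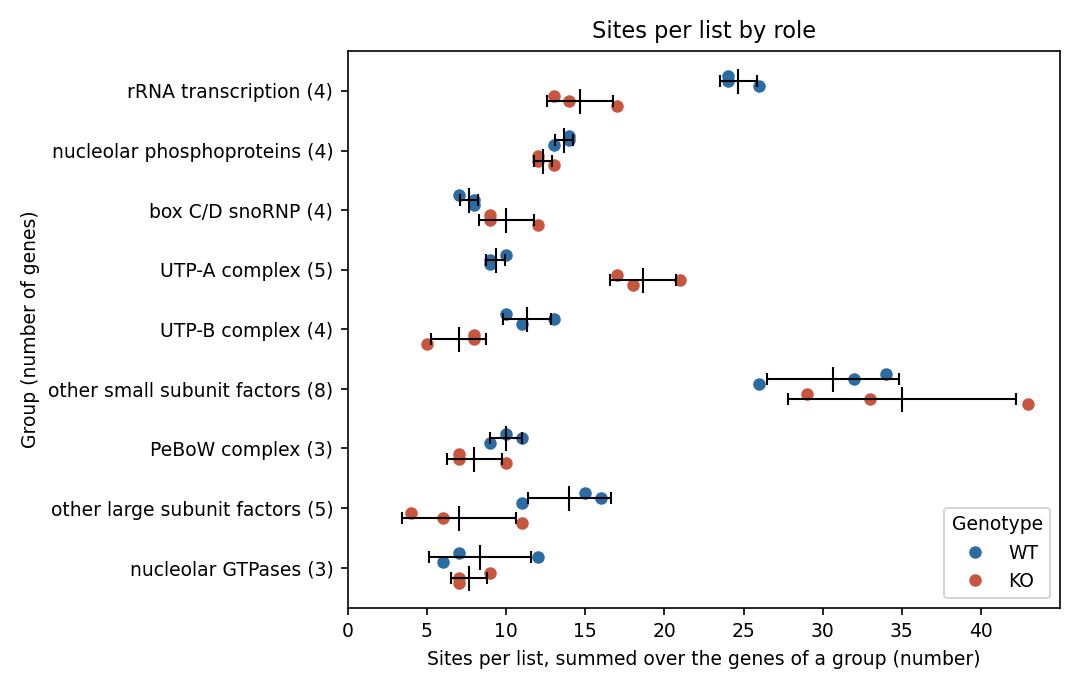
Sites per list summed over the genes of each role group (horizontal axis, number of sites) for 9 groups (number of genes in brackets); points are single lists, and ticks with bars are the mean and SD of 3 lists. The WT and KO points are apart for rRNA transcription, box C/D snoRNP, UTP-A and UTP-B and meet or overlap for the other 5 groups. Site numbers of 46.8% of all single genes did not overlap either, and no such share was computed for other groups of genes.

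The other small-subunit factors held 34, 32 and 26 sites in the WT lists against 29, 33 and 43 in KO (difference 4.33, exact permutation p = 0.5), and their ranges overlapped. Without KO list 3 the difference was 0.333, and without WT list 3 or KO list 1 it was 2 or 7.33. NOP14, a scaffold of the processome, had the most sites of the group, with 10, 10 and 11 in WT and 7, 8 and 10 in KO, which met at 10. UTP14A, an activator of a processome helicase, held 2, 1 and 2 sites in the WT lists against 4, 6 and 5 in KO (1.67 ± 0.577 against 5 ± 1). It had 4 KO-only regions and 1 WT-only region. Its KO-only coding region chrX:129045742-129045897 had folds of 31.7, 28.2 and 26.7, while the WT-only region chrX:129041343-129041418 had 14.4, 13.8 and 16.1. A retrogene copy of UTP14A is known, so reads between the copies may be uncertain.

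RRP12, a HEAT-repeat protein of pre-ribosome export, held 2, 3 and 2 sites in the WT lists against 6, 4 and 4 in KO (2.33 ± 0.577 against 4.67 ± 1.15). No RRP12 region was in all 6 lists. The highest folds in WT, 21.7, 13.2 and 20.7, lay at the region chr10:99150496-99150602. Its sites were annotated to a start codon in WT lists 1 and 2 and to the coding sequence in WT list 3. In KO the highest folds lay at a coding region, chr10:99160062-99160291, with 36.7, 30.8 and 32.3. NOL6, the homologue of yeast Utp22, overlapped in number (5, 4 and 1 against 3, 3 and 4). A KO-only coding region of NOL6, chr9:33464035-33464125, reached folds of 29.5, 29.8 and 30.4. UTP20, a large HEAT-repeat protein, had 5 or 6 sites in 5 lists and 14 in KO list 3. BMS1, a GTPase with near-identical copies on its chromosome, and TSR1, its relative in the pre-small subunit, also overlapped, with 2 to 6 and 1 to 4 sites per list.

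The PeBoW complex of PES1, BOP1 and WDR12, needed for large-subunit rRNA processing, held 10, 11 and 9 sites in the WT lists against 7, 7 and 10 in KO (difference -2, exact permutation p = 0.3). BOP1 held 6 sites in every WT list against 4, 3 and 5 in KO (6 ± 0 against 4 ± 1), without overlap. WDR12 was found in WT lists only, with 1, 1 and 2 sites. The WDR12 sites were short, 15 bases at chr2:203757411-203757425 and 8 bases at chr2:203762023-203762030, and their highest folds per list were 3.91, 3.18 and 3.78, at percentiles 9.41 to 17.6 of those lists. PES1 held 3, 4 and 1 sites in the WT lists against 3, 4 and 5 in KO, and none of its 7 regions was confined to all lists of 1 genotype or shared by all 6.

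The other large-subunit factors held 15, 16 and 11 sites in the WT lists against 4, 6 and 11 in KO (difference -7, exact permutation p = 0.2), and the ranges met at 11. RRP1, the homologue of yeast Rrp1, had 2 sites in each WT list and none in KO. A start codon region of RRP1, chr21:45209418-45209643, had folds of 8.02, 7.26 and 7.5, and the gene's highest folds, 13.2, 12.4 and 16.7, came from a coding site of 12 bases, chr21:45212553-45212564. RRP1B, a nucleolar protein that brings a phosphatase to the nucleolus, held 6, 6 and 3 sites in the WT lists against 0, 0 and 3 in KO, so only KO list 3 met the WT range. Its highest WT folds, 24.4, 15.9 and 19.9, were in the 3' UTR, with the highest of these at chr21:45113746-45114384. In KO list 3 the highest fold was 7.68. NOL9, a polynucleotide kinase of pre-rRNA processing, followed the same lists, with 2 sites in each WT list, as against 0, 0 and 2 in KO. NOP16 held 3 sites in each WT list and 2 in each KO list, and NOP2, an rRNA cytosine methyltransferase, held 2, 3 and 1 against 2, 4 and 4.

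The nucleolar GTPases held 7, 12 and 6 sites in the WT lists against 9, 7 and 7 in KO (difference -0.667, exact permutation p = 1). The sign rested on WT list 2, without which the difference was 1.17, and the difference was -1.83 without WT list 3. GNL2, a GTPase of late nuclear large-subunit maturation, held 4, 4 and 3 sites in the WT lists against 2, 1 and 0 in KO (3.67 ± 0.577 against 1 ± 1). GNL3, nucleostemin, a nucleolar GTPase of proliferating and stem cells, was found in KO lists only. It had 1 site in each, the same 246 bases of the 5' UTR at chr3:52720187-52720432, with folds of 8.43, 7.11 and 9.77. Its paralogue GNL3L held 3, 8 and 3 sites in the WT lists against 6, 5 and 6 in KO, and the WT range enclosed the KO range. A KO-only region at the GNL3L stop codon, chrX:54586953-54587591, had folds of 21.2, 16.2 and 19.

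Regions were shared more within a genotype than between the genotypes. Merging by an overlap of 1 base or more gave 257 member regions. Of these 53 (20.6%) were WT-only, where 21.8% of all 35919 regions were, and 45 (17.5%) were KO-only, where 20.9% of all regions were. At a fold of at least 4 the KO-only regions numbered 29. All 6 lists shared 32 (12.5%, with 8.07% of all regions), in 14 members. The Jaccard index, the regions in both of a pair of lists over the regions in either, averaged 0.695 (0.608 to 0.776) within genotypes and 0.222 (0.212 to 0.243) between them. That difference of 0.473 was the largest of all splits of the lists into 3 and 3 (exact permutation test, one-sided, p = 0.1, the smallest possible). For all sites the averages were 0.686 and 0.161, which is the same direction.

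A WT-only region was found in 26 members, a KO-only region in 23 and both in 17. No shares over all genes were computed for these counts or for the neighbours and distances below. A gene with more sites has more room for both kinds, and members with a site carried 3.97 sites per WT list, as against 2.36 for all genes. In all, 50 of the 53 WT-only regions and 42 of the 45 KO-only regions lay in a member with some region in the other genotype. They were seldom next to it: 2 and 3 regions lay within 100 bases of it, and the median genome distances, introns included, were 2202.5 and 2163 bases. The strongest site of a gene also differed by list. Among the 25 members with a site in all 6 lists, none had its highest fold in the same region in every list, where 16.3% of 3940 genes did. In 6 of the 25 (24.0%), MYBBP1A, TCOF1, WDR43, NOP14, UTP14A and RRP12, the highest fold was in 1 region in all WT lists and in another in all KO lists, where 35.2% of those genes did so. The 3940 genes were not matched to the members in sites per gene. A gene with only 1 region has its highest fold there in every list by construction, so neither comparison shows a trait of the members.

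**Figure D3:**
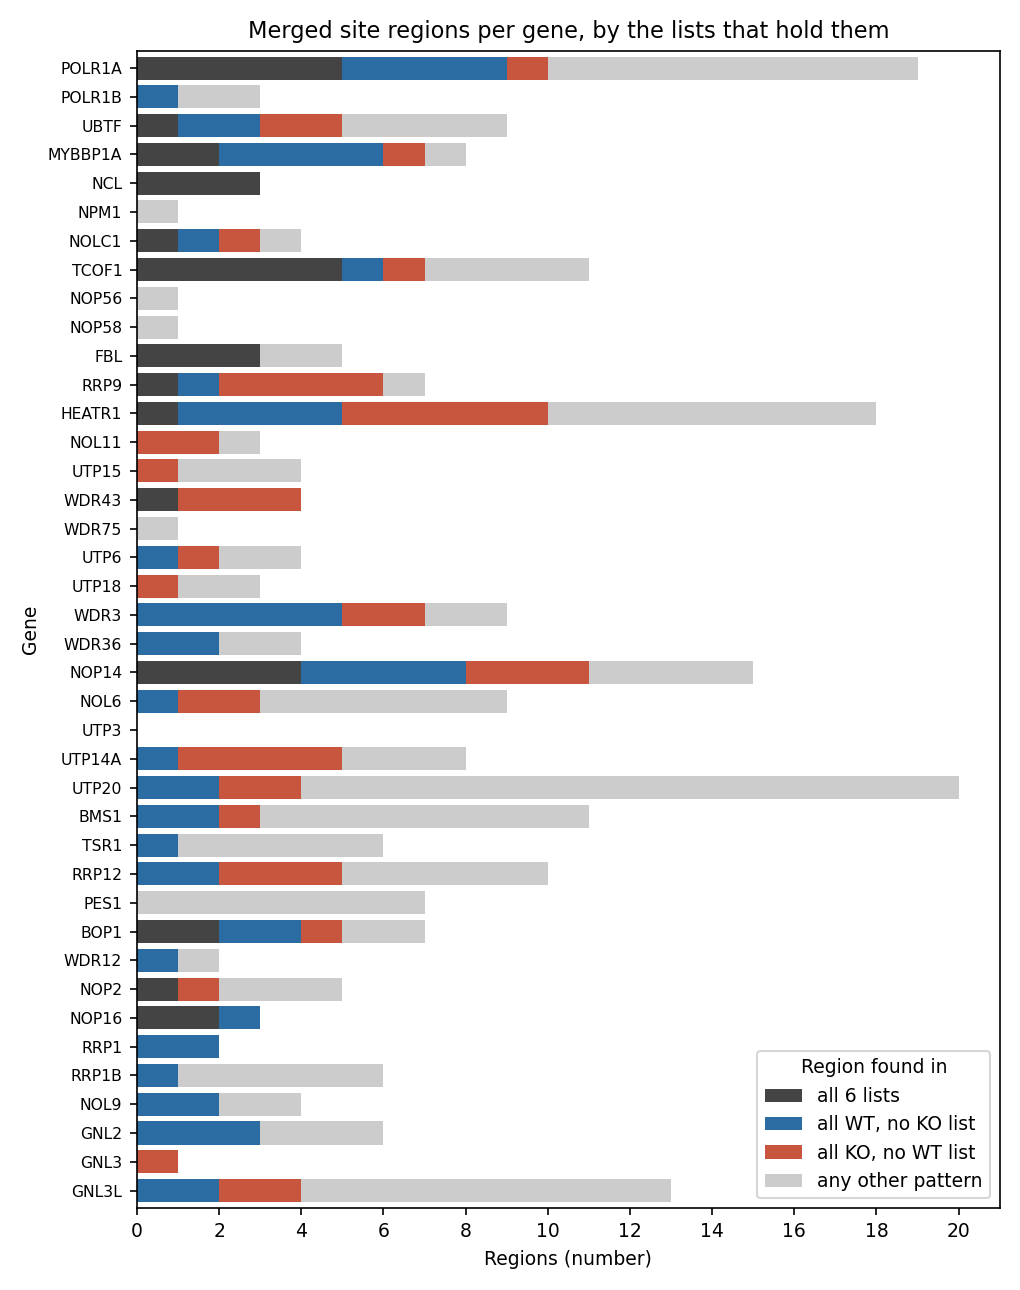
Merged site regions per gene (horizontal axis, number of regions; rows, the 40 genes), coloured by the lists that hold them. POLR1A and TCOF1 have 5 regions each in all 6 lists, all 3 NCL regions are in all 6, WDR3 has 5 WT-only regions and HEATR1 5 KO-only ones; the MYBBP1A bar counts as shared the 3' UTR region that was named for SPNS2 in KO lists.

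Most sites lay in the coding sequence, as the authors annotate the parts of a transcript. In the 39 members, 72.5 ± 0.69% of sites per WT list and 75 ± 0.636% per KO list were in the coding sequence, where all sites had 56.6% and 56.1%. Start codon sites made up 13.6 ± 0.655% in WT and 11.4 ± 0.479% in KO, and stop codon sites 9.75 ± 0.442% and 10.3 ± 0.0619%. For these 3 parts the genotypes did not overlap, with an exact permutation p of 0.1 each and 0.167 after Benjamini-Hochberg adjustment over the 5 parts. The separation did not hold throughout: the coding difference had an exact p of 0.9 at a score of at least 100, the stop codon difference 1 at a length of at least 50 bases and the start codon difference 0.2 at a score of at least 100. Without WT list 3 the stop codon difference was 0.311 percentage points in place of 0.563. For all sites the start codon share differed the other way, 13.7% in WT and 14.6% in KO. The members had few sites in the 5' UTR, 1.27 ± 0.374% and 1.33 ± 0.756% (exact p = 0.8, with the sign turned without WT list 3 or KO list 3, at -0.148 and -0.37 percentage points), and in the 3' UTR, 2.83 ± 0.872% and 1.93 ± 0.252% (exact p = 0.2), where all sites had 6.1% and 7.08% in the 5' UTR and 9.97% and 8.79% in the 3' UTR. With the gene columns of KO list 1 as deposited, the coding difference turned from 2.47 to -1.39 percentage points. As deposited, those columns stood in another row order than the parts, so most parts were those of other sites. Member regions shared by all 6 lists were in the coding sequence in 59.4% of cases, WT-only member regions in 79.2% and KO-only ones in 77.8%. The same shares were not computed over all regions.

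**Figure D4:**
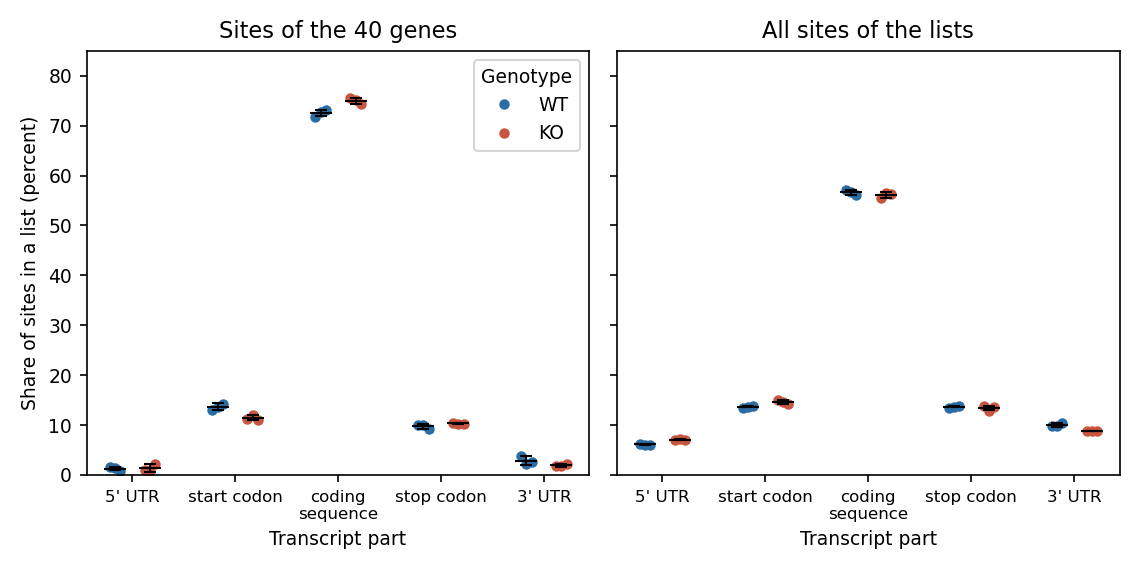
Share of the sites in a list (vertical axis, percent) that lie in each transcript part, for the sites of the 40 genes (left) and all sites (right); points are lists, and bars are the mean and SD of 3 lists. The coding sequence holds 72.5% and 75% of member sites in WT and KO, above the 56.6% and 56.1% of all sites.

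By fold the member sites were moderate within their lists. The median fold of member sites was 6.2, 5.57 and 6.5 in WT lists, where all sites had 7.57, 7.68 and 8.32, and 6.18, 6.04 and 6.14 in KO lists, where all sites had 7.8, 7.03 and 7.23. The median member site stood at percentile 33.7 to 41.7 of the folds of its list, and 0 member sites were among the top 5% of any list. Member sites were also shorter than the median site of their list, with 128, 131 and 133 bases in WT and 143, 143 and 142 in KO, where all sites had 162 to 178. Taking each gene's highest site, the 10 members with the highest median percentile were UTP15 (90), RRP12 (87.6), TCOF1 (85.3), RRP9 (83.1), UTP14A (82.2), RRP1B (81), WDR43 (80.5), MYBBP1A (79.6), POLR1A (77.1) and NOL11 (75.6). These medians are over the lists in which a gene had a site, which were 5 for UTP15, 4 for RRP1B and 3, all KO, for NOL11. UTP15 stood at 91.5, 93.1 and 90 in the KO lists but at 63.7 and 49.5 in WT lists 1 and 3. NOP58, NPM1, WDR75 and WDR12 stood lowest, at 3.53, 8.1, 11.2 and 13.5.

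**Figure D5:**
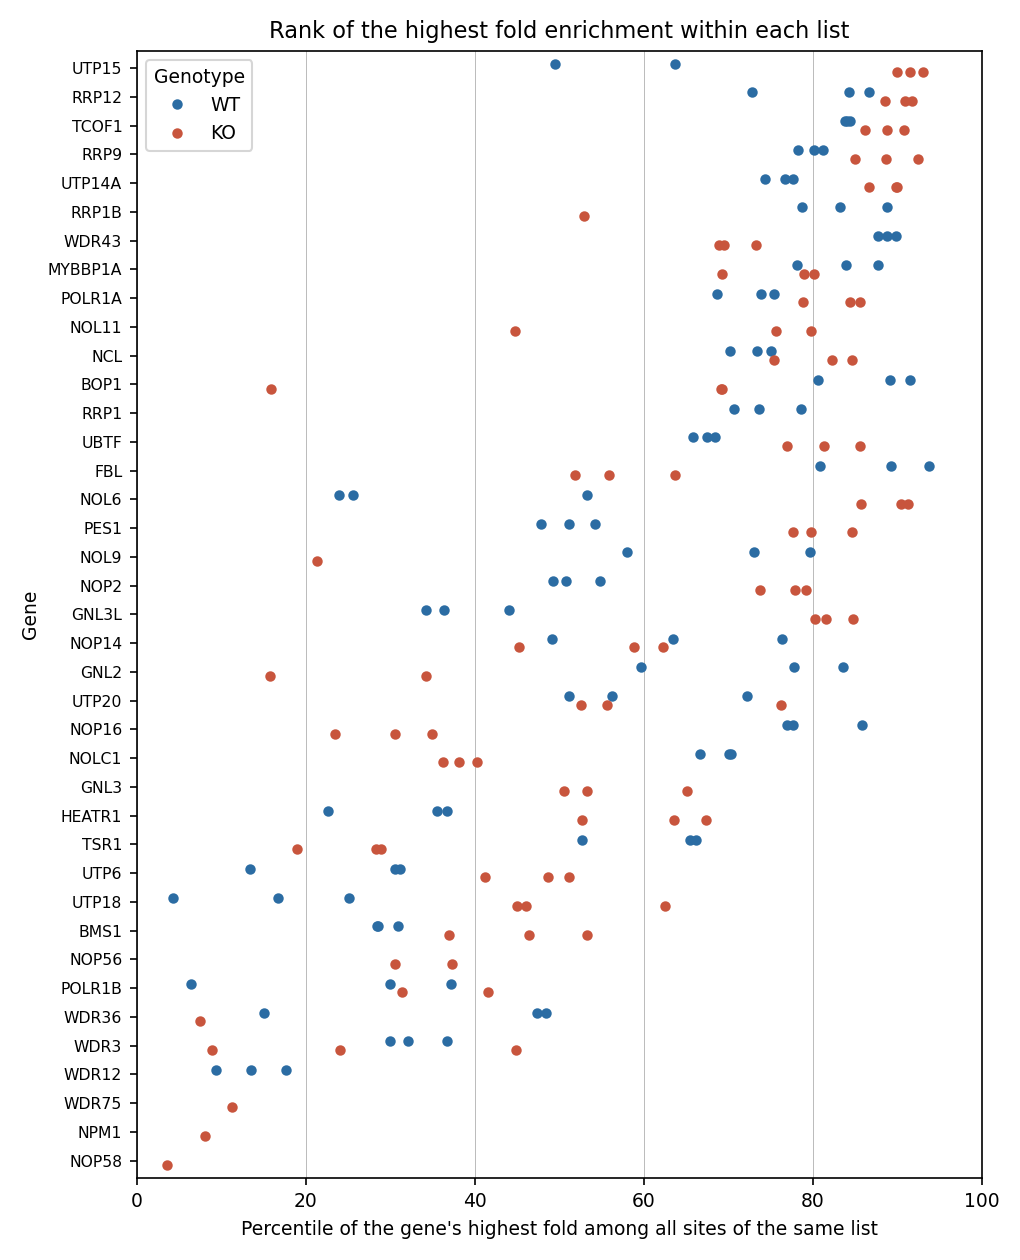
Percentile of each gene's highest fold among all sites of the same list (horizontal axis), by gene (rows) and genotype (colour). Rows are ordered by the median over lists with a site, and each point is 1 list. UTP15 leads with a median percentile of 90, and the points of TCOF1 stay between 83.8 and 90.8 while those of BOP1 range from 15.9 to 91.5.

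Other ribosome biogenesis genes gave a similar spread in both directions. Of 90 further genes of the pathway, 76 had a site in some list, on 65, 59 and 54 genes in WT lists and 52, 53 and 60 in KO lists (59.3 ± 5.51 against 55 ± 4.36, exact permutation p = 0.4). Of the 76, 16 (21.1%) had fewer sites in every KO list and 11 (14.5%) had more, beside 23.1% and 23.7% of all genes. Found in all WT lists and no KO list were 9 (11.8%, the share of all genes also being 11.8%). These were POLR1H, a subunit of RNA polymerase I, the small-subunit factors IMP3, RRP36 and DIMT1, the large-subunit factors RPF2, MRTO4 and PPAN, the nucleolar protein RSL1D1, and DKC1, the pseudouridine synthase of box H/ACA snoRNPs. Found in all KO lists and no WT list were 5 (6.58%, with 15.0% of all genes), namely POLR1F, another subunit of RNA polymerase I, BYSL, which acts on the small subunit, RRP15 and PAK1IP1, which act on the large subunit, and SBDS, the Shwachman-Diamond protein of late large-subunit maturation. The number found only in KO was 8 without WT list 1, though leaving a list out can only keep or raise it. It was 9 to 11 at a fold of at least 4, a score of at least 100 or equal list lengths. Under those settings of fold, score and length the difference in genes with a site also changed sign (0.333 to 1.67).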

How the data were processed

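The 12 samples are 6 pairs of IP and input libraries of HK-2 cells. Per the submitters' processing notes, cutadapt 1.9.3, HISAT2 2.0.4 and hg38 were used, with no role given. Per the file headers, the authors called sites with MACS for each pair. The deposited score is −10 log10 of the p-value, at least 50; the deposited fold is a ratio of IP to input, at least 2; the deposited false discovery rate is in percent; the deposited length is in bases. Only 13.6% of member regions started within the gene's GRCh38.p14 span, though 100% lay on its chromosome, so the coordinates are of a build not given in the sources used here; starts are printed counted from 1. In KO list 1 the coordinate and gene columns stood in different orders; they were rejoined on significance and length, which paired 13344 of 13818 rows and left 2 member sites unpaired (UTP14A and TCOF1). The join was tested on shuffled WT lists, with 99.1% to 99.3% of rows joined and 100% of these right. Empty lines, 17 in all, were left out.

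Site numbers, regions and shares were computed with Python 3.11.15, pandas 2.3.3, NumPy 2.4.6 and SciPy 1.17.1. Site numbers and shares were compared by two-sided exact permutation tests over lists. The Jaccard difference was tested one-sided over 20 splits of the lists, with each split counted from both sides. Folds, scores and false discovery rates are the authors' and describe sites within a list. Named in full were members of 1 genotype only, members whose site numbers do not overlap, the member with most sites in each role group, and the 10 members with the highest median fold percentile; further members are named to account for all 40, and regions of UBTF, NCL, FBL, NOL6 and GNL3L were chosen after their values were seen. Members, roles, lists and motif were chosen with earlier results of these data known. Alternatives were a fold of at least 4, a score of at least 100, equal list lengths, sites of at least 50 bases, a shared part of at least 50% of the shorter site, KO list 1 as deposited, leaving out each list, and a replicate block; role sums under these settings and the comparison of each gene's highest-fold region were added after seeing the data. Same-numbered WT and KO lists did not deviate together (r over 6187 genes of -0.0847, -0.00537 and -0.0764).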

Additional observations from a re-analysis of the deposited data

How the results depend on the processing

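Depth is unknown, no site had a false discovery rate under 11.3%, and 3 lists per genotype cannot pass 0.05. No value could change its side of that threshold, so only directions and sizes are compared. Of the results that answer a comparison, 10 values changed sign and 8 counts moved by over 1.5 times. WDR12 had a difference of 0 at a fold of at least 4 and at 50 bases or more. The absence of overlap that singled out 17 members was kept by 12 at a fold of at least 4, 12 at a score of at least 100, 11 at equal list lengths and 13 at 50 bases or more, and by 9 in all 4. The cause was not tested.

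Changing sign were the KO minus WT difference of members with a site (0.833 without KO list 1, range without single lists -2.17 to 0.833), that of other pathway genes with a site (0.333 at a fold of at least 4, 0.667 at a score of at least 100, 1.67 at equal list lengths), and shares in percentage points. These were the 3' UTR share (0.0163) and the coding share (-1.39) with KO list 1 as deposited, and the 5' UTR share. The 5' UTR difference was -0.252 at a fold of at least 4, -0.254 at 50 bases or more and -0.148 without WT list 3. Without single lists it was between -0.37 (without KO list 3) and 0.306. As deposited, only 1 of 13818 rows of KO list 1 had matching coordinate and gene columns, so those parts were mostly of other sites. Moved counts included KO-only member regions (29 at a fold of at least 4). WT-only members numbered 1 at a fold of at least 4, 1 at 50 bases or more, and 2 to 4 without single lists. The highest came without KO list 3. KO-only other pathway genes numbered 9 at a fold of at least 4, 10 at a score of at least 100 and 11 at equal lengths. Without single lists they numbered 5 to 8, the highest without WT list 1. Leaving a list out could only keep or raise these gene counts, since their rules ask for every list.

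Role group sums and the MYBBP1A count with SPNS2 sites (difference -3.33) were added after seeing the data. The GTPase sum changed sign at equal list lengths and at 50 bases or more (0.333 each) and ranged from -1.83 to 1.17 without single lists; the other 8 groups kept their direction, with UTP-B at -2.33 and box C/D at 0.667 at a fold of at least 4. Without single lists the member site difference was -17.2 to -3.17 and the Jaccard difference was 0.449 to 0.511. Members with fewer sites in KO then numbered 10 to 15 and those with more 7 to 9. These member counts ask for every list, so leaving a list out could only keep or raise them. A replicate block, tested by exact sign flips with a smallest p of 0.25, left the member site difference at -9.33 (p = 0.5) and that of members with a site at -0.667 (p = 1); the numbers did not pair the lists.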

Other observations

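KO list 3 held several member sites that no other list held. NPM1, NOP58 and WDR75 each had 1 site there and none in the other 5 lists, with folds of 3.12, 2.64 and 3.41. UTP20 had 14 sites in KO list 3 and 5 or 6 in the others. RRP1B and NOL9 had 3 and 2 sites in KO list 3 and none in KO lists 1 and 2, while all WT lists held sites of both. KO list 3 was the longest list, with 19136 sites, and the part of its length in these values was not tested.

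False discovery rates over 50% were found for 96.2%, 95.7% and 96.6% of member sites in WT lists and 62%, 63.2% and 45.6% in KO lists, as against 92.8%, 92.1% and 91.9% and 62.4%, 68.1% and 43.2% of all sites.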
